A study of Rattus norvegicus with 24 samples.

Results

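Abcg5 and Abcg8 are the 2 transporter subunits that together export sterols from the hepatocyte into bile. Their RNA was followed in livers of male Sprague Dawley rats given alpha-naphthylisothiocyanate (ANIT), a toxicant of the bile ducts and of the hepatocytes next to them. The members are the probe sets whose platform annotation names only Abcg5 or only Abcg8. The rule found 2 of the 31139 probe sets on the array: 1369455_PM_at for Abcg5 (Entrez gene 114628) and 1369440_PM_at for Abcg8 (Entrez gene 155192).

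ABCG5 and ABCG8 each hold a single nucleotide-binding domain and a single membrane domain, and neither moves sterol alone. The 2 proteins pair in the endoplasmic reticulum, with help of the lectin chaperones, and then travel to the apical membrane, which in hepatocytes is the canalicular membrane facing bile. There they secrete cholesterol and plant sterols, and loss of either protein causes sitosterolemia. In liver both genes are known targets of the oxysterol receptors LXR, and Hnf4a, Nr5a2, GATA factors, Foxo1, thyroid hormone receptor and the bile acid receptor Nr1h4 have also been linked to their transcription.

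The study comprised 24 rats, 8 weeks of age, with 1 rat per array and 6 rats in each of 4 groups. Rats received either 50 mg/kg ANIT dissolved in corn oil or corn oil alone, as 1 intragastric dose of 10 ml/kg, and were killed with CO2 24 h or 120 h later. The series describes 24 h as the time of peak injury and 120 h as that of its resolution. All 4 groups, vehicle included, were fasted for about 18 h overnight before necropsy and were injected intraperitoneally with 100 mg/kg BrdU about 2 h before it. The data therefore describe fasted males of 1 strain after 1 dose, and the fed state was not analysed here. RNA came from whole liver tissue.

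The 2 genes lie head to head, and the stretch between their starts is shown because any factor bound there sits upstream of both. In the RefSeq table for GRCr8, Abcg5 starts at base 15717936 of chromosome 6 on the plus strand, and Abcg8 starts at base 15717730 on the minus strand, 206 bases away. The promoter windows of 300 bases, 250 before to 50 after each start, share 295 bases. The window of Abcg5, chr6:15717686-15717985 on the plus strand, reads 5′ to 3′ as follows, with the 2 GATA boxes (AGATAA) and the CCAAT box (here as ATTGG, its letters on the other strand) in capitals.
Abcg5 window: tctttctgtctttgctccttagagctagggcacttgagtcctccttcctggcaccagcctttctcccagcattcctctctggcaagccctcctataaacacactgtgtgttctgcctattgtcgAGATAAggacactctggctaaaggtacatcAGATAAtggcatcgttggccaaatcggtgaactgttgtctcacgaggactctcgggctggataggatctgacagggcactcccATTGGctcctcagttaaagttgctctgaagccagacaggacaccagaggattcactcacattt

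The GATA boxes lie 121 and 91 bases before the start of Abcg5, which is 80 and 110 bases before that of Abcg8. At least 1 AGATAA on either strand occurred in 11.6% of the 33469 windows of this length in the table, and 2 or more occurred in 1.09%. The CCAAT box lies 9 bases before the Abcg5 start, and CCAAT was found in 37.5% of windows. A TATAAA lies 153 bases before the Abcg5 start and 48 before that of Abcg8, and 14.2% of windows hold one. The nuclear receptor motif AGGTCA, present in 16.2% of windows, was not found in either window. Its direct repeats DR1 and DR4 and the longer CAAGGTCA, which all contain it, were not found either, nor was the forkhead motif TGTTTAC. They occurred in 0.0538%, 0.00598%, 1.52% and 3.78% of windows. Both strands were searched, and a match describes letters only.

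**Figure D1:**
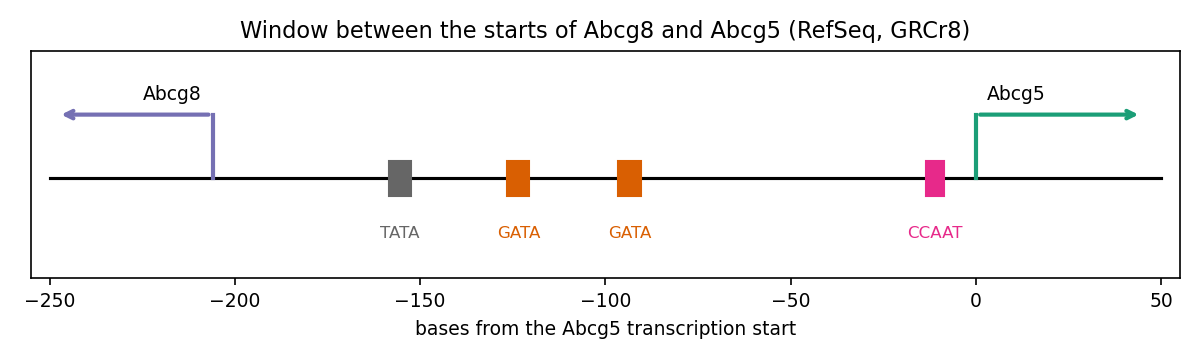
Map of the stretch between the transcription starts of Abcg8 and Abcg5, drawn to scale in bases from the Abcg5 start, with arrows for the direction of transcription and boxes for the motif matches. The starts lie 206 bases apart, and the 2 GATA boxes stand between them, 121 and 91 bases before the Abcg5 start.

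Values are log2 expression values, and a change is a difference of group means in a limma model of all 4 groups over 13438 genes, given ± its standard error with 6 arrays on each side. Genes were called where the p adjusted by Benjamini-Hochberg, taken over all of them, was under 0.05. The arrays did not share 1 distribution: their SD ran from 1.84 to 2.09, and the level of 9 spiked hybridisation controls from 10.5 to 11.7. By SD, 6 arrays were narrow (at most 1.90), 9 were middle and 9 were wide (at least 2.03). The narrow arrays were vehicle 24 h replicates 3, 4 and 5 and ANIT 120 h replicates 4, 5 and 6, and no label used here names a batch. The beta-actin 3'/5' log2 ratio, a sign of RNA quality, was higher after ANIT at 24 h, 3.12 ± 0.07 against 2.84 ± 0.05 (SD, n = 6, exact permutation p = 0.0022), and was 2.76 ± 0.15 against 2.83 ± 0.08 at 120 h (exact permutation p = 0.37). At 24 h the ratio did not overlap between groups, 2.98 to 3.18 after ANIT against 2.77 to 2.91. A model with this ratio as a covariate therefore cannot separate it from treatment at 24 h. The number of arrays limits the precision of every value.

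Abcg5 fell after ANIT at both 24 h and 120 h. At 24 h the 6 vehicle rats read 6.27, 6.52, 6.69, 6.46, 6.46 and 6.79 on the log2 scale, and the 6 ANIT rats read 5.23, 6.26, 5.64, 5.17, 5.31 and 5.68. Every ANIT rat lay below every vehicle rat, although the highest ANIT rat, replicate 2, came within 0.011 of the lowest vehicle rat. The mean of the ANIT rats was 5.55 ± 0.41 (SD, n = 6) and that of the vehicle rats 6.53 ± 0.19. The change of -0.98 ± 0.18 (95% interval -1.35 to -0.61) corresponds to a level 1.97-fold lower, with a limma adjusted p of 0.00031. In this comparison 18.2% of all genes were called, 12.9% as higher and 5.31% as lower, and Abcg5 ranked 91st by size among the 713 falls. Groups that did not overlap, with ANIT the lower, were seen for 2.32% of genes. In whole liver, fewer cells of a type and less RNA per cell cannot be told apart.

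At 120 h the vehicle rats read 7.03, 6.44, 7.66, 6.59, 7.02 and 6.64, and the ANIT rats 6.01, 6.11, 6.12, 5.61, 5.81 and 6.15. The 2 groups stood apart by 0.29, so all 6 ANIT rats were again below all 6 vehicle rats. The mean of the ANIT rats was 5.97 ± 0.21 (SD, n = 6) against 6.90 ± 0.44 in vehicle rats. The change was -0.93 ± 0.18 (95% interval -1.30 to -0.56), a level 1.90-fold lower, with a limma adjusted p of 0.0064. Only 2.02% of genes were called at this time, 0.513% as higher and 1.51% as lower, and groups without overlap and with ANIT lower were seen for 1.58%. By size Abcg5 ranked 33rd among the 203 falls. Without the 6 narrow arrays the change was -0.82, with an adjusted p of 0.11 from limma, so the call at 120 h was lost with those arrays, 3 of which came from ANIT rats of 120 h.

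The 2 effects on Abcg5 differed by 0.05 ± 0.26 (95% interval -0.48 to 0.58, limma adjusted p = 0.90), in a comparison that called 14.3% of genes. With the beta-actin ratio as a covariate the difference was 0.45 (limma adjusted p = 0.62). Of the 713 genes that fell at 24 h, 61 also fell at 120 h, which is 8.56% of the first list and 30.05% of the second, and Abcg5 was one of them. The 2 comparisons used different vehicle rats.

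Within bands of array SD the sign was the same wherever both treatments were present. Among the middle arrays of 24 h, the mean of 3 ANIT rats differed from that of 2 vehicle rats by -1.07. Among the wide arrays of 24 h, 3 ANIT rats against 1 vehicle rat gave -0.75, and among the wide arrays of 120 h, 3 against 2 gave -1.26. With the spiked control level in the model the limma change was -1.10 at 24 h (adjusted p = 7.5e-05) and -0.88 at 120 h (adjusted p = 0.0034). With the beta-actin ratio as a covariate it was -1.30 (adjusted p = 0.0020) and -0.84 (adjusted p = 0.018). Since the ratio did not overlap between the groups of 24 h, the first of these values cannot separate RNA quality from treatment.

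The order of the Abcg5 group means was vehicle 120 h, vehicle 24 h, ANIT 120 h and ANIT 24 h. None of the neighbours in this order differed by a call. Vehicle rats of 120 h exceeded those of 24 h by 0.37 ± 0.18 (limma adjusted p = 0.41), in a comparison with 1 called gene, Gpt, which is 0.00744% of all genes, and with 1639 genes at an unadjusted p under 0.05. ANIT rats of 120 h lay -0.56 ± 0.18 from vehicle rats of 24 h (adjusted p = 0.13), although the 6 and 6 values did not overlap, a pattern that 0.655% of genes showed in that direction and where 1.81% were called. That contrast was added after the values had been seen, and 5 of 12 other settings called it. ANIT rats of 120 h exceeded those of 24 h by 0.42 ± 0.18 (95% interval 0.05 to 0.79, limma adjusted p = 0.11), where 21.1% of genes were called. Without ANIT 24 h replicate 2, the highest of its group, this last value was 0.56, with an adjusted p of 0.019, and with the beta-actin ratio as a covariate it was 0.84 (limma adjusted p = 0.11).

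The Abcg8 probe set was dim, and limma called none of its changes. At 24 h the vehicle rats read 4.27, 4.23, 4.03, 4.24, 4.38 and 4.31, and the ANIT rats 4.13, 4.08, 4.10, 4.07, 3.72 and 3.96. The groups overlapped, with 2 of the 6 ANIT rats below the lowest vehicle rat. ANIT rats averaged 4.01 ± 0.15 (SD, n = 6) and vehicle rats 4.24 ± 0.12, a change of -0.23 ± 0.14 (95% interval -0.52 to 0.05) with a limma adjusted p of 0.26 and an unadjusted p of 0.11. A test of the probe set alone, added after the values had been seen, gave another answer: the exact two-sided permutation p over 924 splits was 0.011, or 0.043 adjusted over 4 comparisons of the gene. The 2 tests do not use the same spread, since limma took 1 SD over all 4 groups and the SD of Abcg8 at 120 h was 0.34 and 0.30. With the beta-actin ratio as a covariate the change was -0.44 (limma adjusted p = 0.25), and after another quantile normalization -0.15 (adjusted p = 0.53).

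At 120 h Abcg8 read 4.38, 3.99, 4.82, 4.12, 4.04 and 3.88 in vehicle rats and 4.16, 4.11, 3.98, 4.16, 3.89 and 4.75 in ANIT rats. The groups overlapped over nearly their whole range, with means of 4.20 ± 0.34 (SD, n = 6) and 4.18 ± 0.30. The change was -0.03 ± 0.14 (95% interval -0.32 to 0.26, limma adjusted p = 0.95), so the interval leaves out a fall as large as that of Abcg5. The difference between the 2 effects was 0.21 ± 0.20 (adjusted p = 0.49). Abcg8 levels ran from vehicle 24 h through vehicle 120 h and ANIT 120 h to ANIT 24 h. The vehicle groups differed by -0.04 ± 0.14 (limma adjusted p = 0.91) and the ANIT groups by 0.17 ± 0.14 (adjusted p = 0.46). With the change of -0.03 between the groups of 120 h, no neighbours in this order differed by a call. ANIT 120 h and vehicle 24 h, which are not neighbours here, differed by -0.07 ± 0.14 (adjusted p = 0.93).

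**Figure D2:**
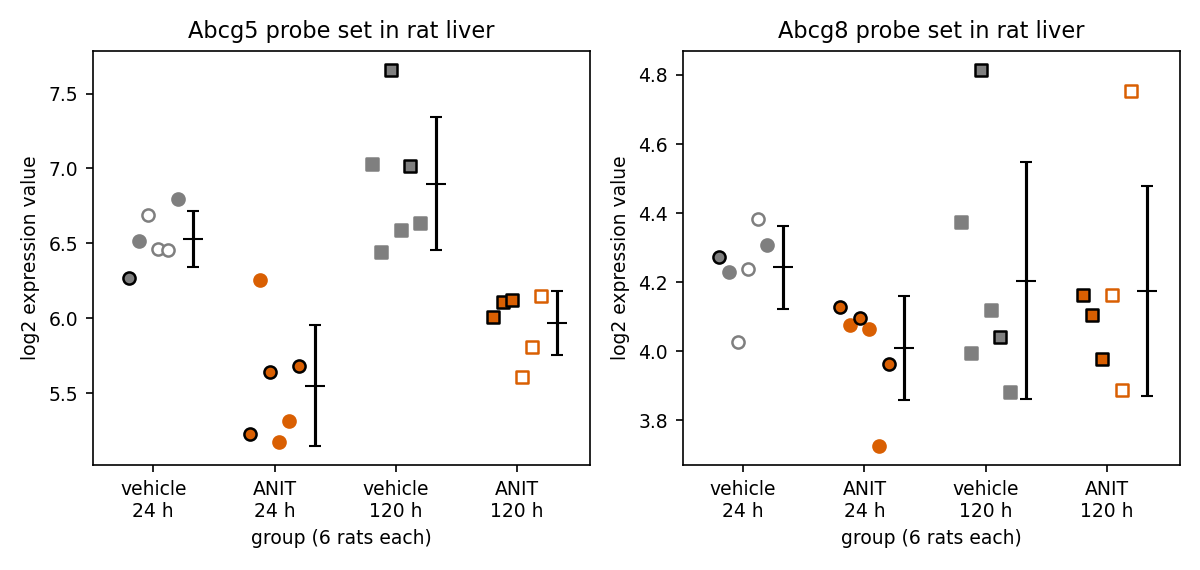
Log2 expression value of the Abcg5 probe set (left) and the Abcg8 probe set (right) in each rat, by group, on separate axes. Grey is vehicle and orange ANIT, circles are 24 h and squares 120 h, open symbols are narrow arrays and black-edged ones wide arrays, and bars give the mean ± SD of 6 rats. For Abcg5 the ANIT points of each time lie below all vehicle points of that time, and for Abcg8 they overlap with them.

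Each level was then placed among those of all genes. Abcg5, with a mean of 6.24 over all arrays, was brighter than 51.1% of genes, and Abcg8, with a mean of 4.16, was brighter than 12.8%. Abcg8 lay at least 0.85 above the highest of 23 non-specific control probe sets on each array. This does not by itself show detection, because very dim genes passed these controls too. The highest control value on any array was 3.10, and Sox9 read 3.13 to 3.77 in vehicle rats of 24 h. Of the dimmest 3360 genes, which include Abcg8, 3.39% were called at 24 h and 0.357% at 120 h. Among the 3359 genes with levels of 6.18 to 7.85, which include Abcg5, these shares were 23.1% and 1.67%. A probe's brightness also depends on its sequence, so these levels do not say which of the transcripts was more abundant.

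Taking the difference Abcg5 minus Abcg8 on each array removes only what shifted both probe sets by the same log2 amount. At 24 h it ranged from 1.99 to 2.66 in vehicle rats (mean 2.29 ± 0.25, SD, n = 6) and from 1.10 to 2.18 in ANIT rats (mean 1.54 ± 0.41). The groups overlapped, through ANIT replicate 2. The shift was -0.75, with an exact two-sided permutation p of 0.0065 and an adjusted p of 0.013 over the 4 comparisons of this measure. At 120 h it ranged from 2.45 to 2.98 in vehicle rats (mean 2.69 ± 0.21) and from 1.40 to 2.14 in ANIT rats (mean 1.79 ± 0.30), without overlap. There the shift was -0.90, with an exact permutation p of 0.0022, the smallest that 6 against 6 arrays allow, and an adjusted p of 0.0087. The measured signals of the 2 probe sets thus changed unequally at both times. Whether the 2 RNAs did so was not tested, and Abcg8 was the dim probe set. Array properties also need not act equally on both. On values minus group means, r with the spiked control level was -0.34 for Abcg5 and -0.02 for Abcg8.

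Between the vehicle groups the same difference was higher by 0.40 at 120 h (exact permutation p = 0.022, adjusted p = 0.029), with overlapping ranges. Between the ANIT groups it was higher by 0.25 at 120 h (exact permutation p = 0.24). After the arrays were quantile normalized once more, the shift between vehicle groups was 0.24 and no longer passed (exact permutation p = 0.23).

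**Figure D3:**
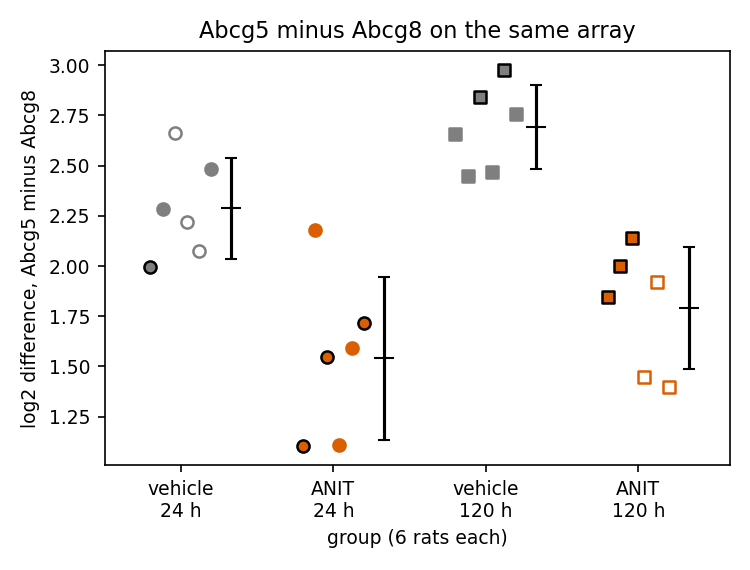
Abcg5 minus Abcg8 in log2 units on each array, by group, with the mean ± SD of 6 rats; colours and symbols mark treatment, time and array band (open narrow, black-edged wide). At 120 h the ANIT rats, 1.40 to 2.14, lie below all vehicle rats, 2.45 to 2.98, while at 24 h the groups overlap.

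Whether the 2 genes varied together from rat to rat was examined within each group of 6. In vehicle rats of 120 h Pearson's r was 0.89 (exact permutation p = 0.032, adjusted p = 0.13 over 4 groups) and Spearman's rho was 0.71 (exact permutation p = 0.14). Without the 2 rats farthest from the median of Abcg5, r was 0.55, and without replicate 3 alone, the highest rat for both genes, it was 0.58, so the relation rests on those rats. In the other groups r was -0.31 in vehicle rats of 24 h (rho = -0.31, exact permutation p = 0.57 and 0.56), 0.19 in ANIT rats of 24 h (rho = -0.09, exact permutation p = 0.66 and 0.92) and 0.35 in ANIT rats of 120 h (rho = 0.31, exact permutation p = 0.51 and 0.56). Their adjusted p was 0.66 for r, and without the 2 farthest rats r was -0.92, 0.16 and 0.41. No group showed a relation that passed the adjustment.

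Over all 24 arrays, as a description, r between the 2 genes was 0.495 for the values and 0.492 for the values minus group means. The points share arrays and their normalization. Head-to-head neighbours in general offer a scale: the RefSeq table held 2149 pairs of genes with starts within 1000 bases and opposite directions, and 484 of them had both genes measured. Their median r was 0.346 for the values minus group means, and 61.2% of them had a lower r than Abcg5 with Abcg8. Both genes of a pair were called in 1 direction for 32 pairs at 24 h and for 0 pairs at 120 h by limma, while just 1 gene was called for 153 and 15 pairs. Abcg5 with Abcg8 belongs to the latter kind at both times. For scale, limma's calls made up 18.2% of all 13438 genes in the 24 h comparison and 2.02% in the 120 h one. Among the dimmest 3360 genes, which include Abcg8, these shares were 3.39% and 0.357%. Whether head-to-head pairs differ in these counts from pairs of unrelated genes was not tested.

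**Figure D4:**
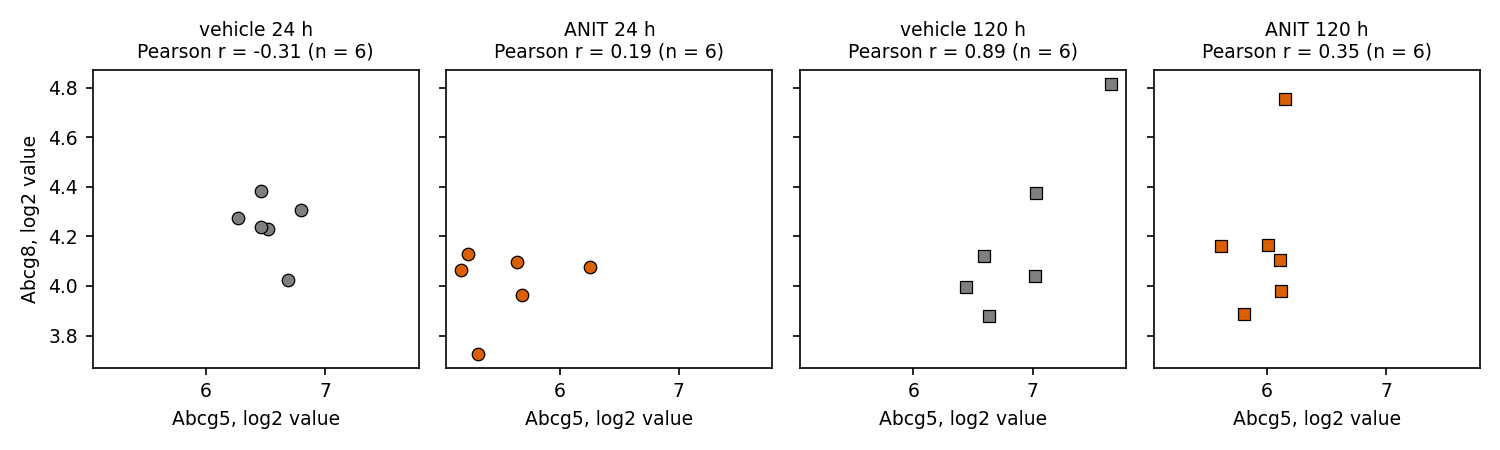
Abcg8 against Abcg5, both as log2 values, with 1 point per rat and 1 panel per group on shared axes; grey is vehicle, orange ANIT. Pearson's r is -0.31, 0.19, 0.89 and 0.35 from left to right, and in vehicle rats of 120 h the highest point for both genes is replicate 3.

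The receptors and factors known to act on the pair were looked at next, as a list of 12 genes, all measured. At 24 h 2 rose, 1 fell and 9 were not called, with a median change of 0.04 against 0.00 over all genes. For this list and those below, the scale is 18.2% of all genes called at 24 h and 2.02% at 120 h. Rxra (group means 4.41 to 4.45) and Thrb (3.95 to 4.04) were among the dimmest 3360 genes, where 3.39% and 0.357% were called. A gene not called was therefore not shown to be unchanged. Nr0b2 (SHP), a repressor induced by bile acid signalling, went from a vehicle median of 6.54 (5.79 to 7.79) to 8.75 (8.27 to 9.79), and rose by 2.35 ± 0.25 (limma adjusted p = 2.0e-07). Nr1h4 (FXR), the bile acid receptor, had a median of 8.34 (8.12 to 8.75) in vehicle and 7.12 (6.91 to 8.01) in ANIT rats, and fell by 1.16 ± 0.20 (adjusted p = 0.00014). Hnf4a, a hepatocyte transcription factor, rose by 0.31 ± 0.09 (adjusted p = 0.019). Without the narrow arrays, or with the beta-actin ratio as a covariate, 1 of the 12 was called higher, and without the narrow arrays, with the control level or after another quantile normalization 2 were called lower.

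The oxysterol receptors themselves were not called at 24 h: Nr1h3 (LXR alpha) had a change of -0.27 ± 0.15 (limma adjusted p = 0.25) and Nr1h2 (LXR beta) of 0.09 ± 0.20 (adjusted p = 0.80). Nr5a2 (LRH-1) had -0.13 ± 0.12 (adjusted p = 0.48). Of the GATA factors, whose box occurs in the shared window, Gata4 had 0.07 ± 0.16 (adjusted p = 0.78) and Gata6 -0.25 ± 0.20 (adjusted p = 0.40).

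At 120 h limma called 0 of these 12 genes, in a comparison that called 2.02% of all genes. At an unadjusted p under 0.05 there were also 0, against 1865 of all 13438 genes. With a called share that small, 0 of 12 says little about these genes. Their median change was -0.01, the same as over all genes. Nr1h4 had 0.01 ± 0.20 (adjusted p = 0.99) and Nr0b2 0.03 ± 0.25 (adjusted p = 0.97), and for both the effect differed from that at 24 h, by 1.17 (adjusted p = 0.0065) and -2.32 (adjusted p = 9.0e-05). Nr1h3 had -0.05 ± 0.15 (adjusted p = 0.91), Nr1h2 -0.22 ± 0.20 (adjusted p = 0.65) and Hnf4a -0.01 ± 0.09 (adjusted p = 0.97). These are RNA levels of the receptors, and their ligands and activity were not analysed here.

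Of 15 other known LXR targets listed, 14 were measured. At 24 h 1 rose, 1 fell and 12 were not called, with a median change of -0.03, and at 120 h limma called 0, with 3 at an unadjusted p under 0.05 (Lpl, Mlxipl and Pltp) and a median of 0.05. Abca1, which passes cholesterol to apolipoprotein A-I, had -0.01 ± 0.27 at 24 h (adjusted p = 0.99) and -0.02 ± 0.27 at 120 h (adjusted p = 0.99). Abcg1, another sterol exporter of the same subfamily, had -0.06 ± 0.17 (adjusted p = 0.84) and 0.25 ± 0.17 (adjusted p = 0.54). The gene that rose at 24 h was Fasn, the fatty acid synthase (2.76 ± 0.20, limma adjusted p = 4.9e-10), and the gene that fell was Smpdl3a, a phosphodiesterase (-0.46 ± 0.10, limma adjusted p = 0.0019). A count of 2 lower at 24 h was found without the narrow arrays, with the control level or after another quantile normalization.

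Of 10 listed transporters of the bile canaliculus 9 were measured, and at 24 h 3 rose, 0 fell and 6 were not called (median change -0.04). After another quantile normalization 1 was called lower. Abcg2, which exports drugs and conjugates and is a homodimer from the same subfamily, had a median of 7.43 (7.09 to 8.07) in vehicle and 8.82 (8.50 to 9.54) in ANIT rats, and rose by 1.41 ± 0.20 (limma adjusted p = 9.3e-06). Abcb4, the floppase for the phospholipid that carries the exported cholesterol in bile, rose by 0.76 ± 0.13 (adjusted p = 0.00018). The bile salt export pump Abcb11 rose by 0.45 ± 0.11 (adjusted p = 0.0053). At 24 h Abcg5 was thus lower while the RNAs of the bile salt and the phospholipid transporter were higher.

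At 120 h limma called 0 of the 9, with 1, the flippase subunit Tmem30a, at an unadjusted p under 0.05, and with 1 call, higher, after another quantile normalization. Abcg2 had 0.10 ± 0.20 (adjusted p = 0.86), Abcb4 -0.04 ± 0.13 (adjusted p = 0.92) and Abcb11 -0.07 ± 0.11 (adjusted p = 0.80). For these 3 genes the effect differed between times, by -1.31 (limma adjusted p = 0.0021), -0.80 (adjusted p = 0.0054) and -0.53 (adjusted p = 0.027). Of the other members of the ABCG subfamily, 5 of 7 were measured, and Abcg2 at 24 h was the only one called at either time.

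**Figure D5:**
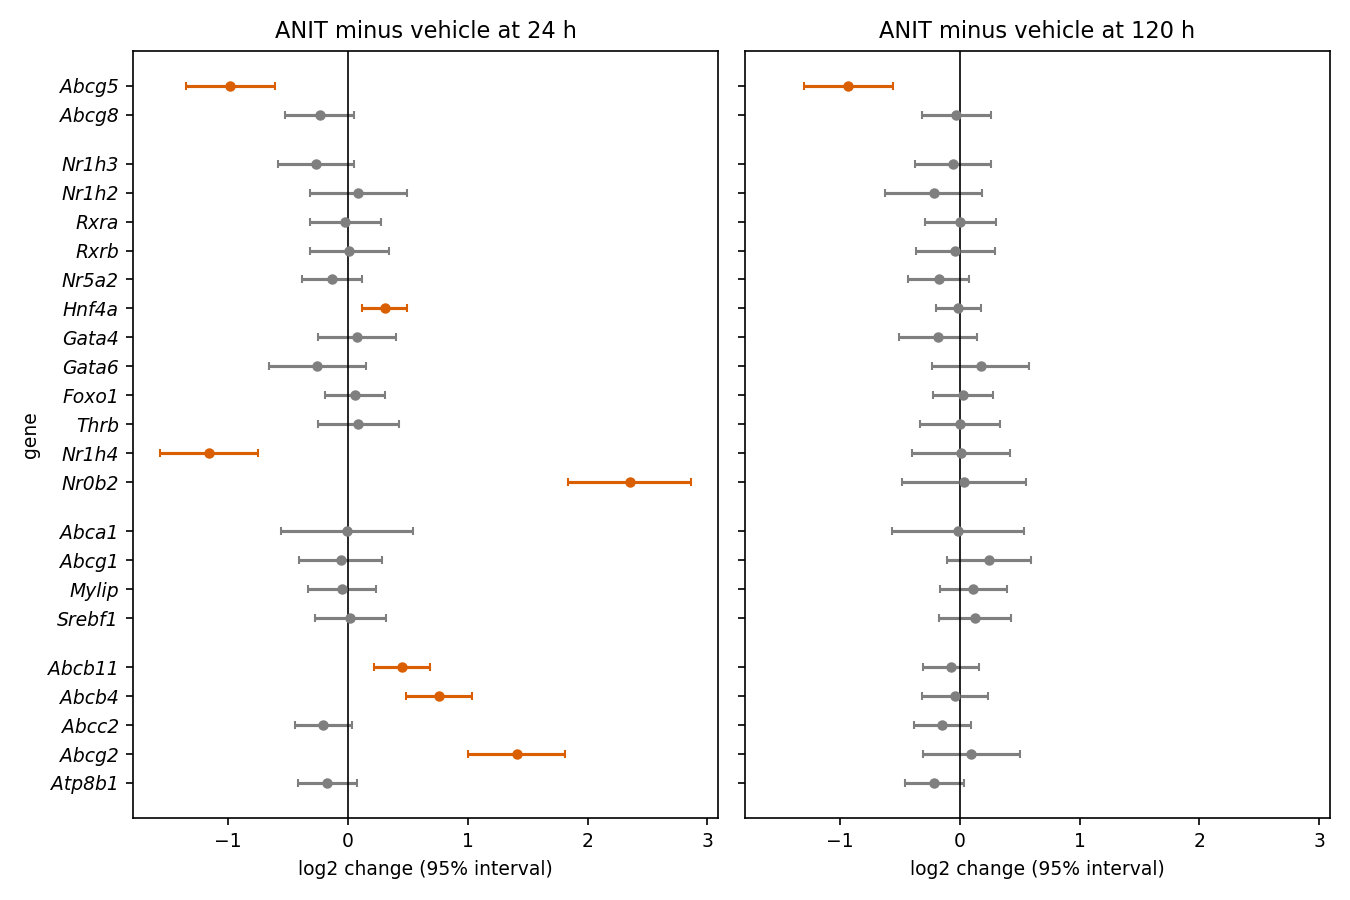
Log2 change, ANIT minus vehicle, with its 95% interval from limma, at 24 h (left) and 120 h (right) for the pair, 12 factors that act on it, 4 LXR targets and 5 canalicular transporters; orange marks an adjusted p under 0.05. At 24 h Abcg5 and Nr1h4 are lower and Nr0b2, Hnf4a, Abcg2, Abcb4 and Abcb11 higher, and at 120 h Abcg5 is the only orange point of the 23 genes drawn. Over all 13438 genes limma called 18.2% at 24 h and 2.02% at 120 h, where 203 genes fell. Abcg5 was drawn because it was under study, so the panel of 120 h does not show its fall to be particular to it.

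The genes that set the hepatocyte's cholesterol supply moved at 24 h. Of 19 cholesterol synthesis genes 16 were measured, and 14 rose and 0 fell, with a median change of 0.999. Sqle, squalene epoxidase, rose by 2.83 ± 0.19 (limma adjusted p = 2.8e-10). With that ratio of beta-actin as a covariate 7 of them were called higher. At 120 h 5 fell and 0 rose, with a median of -0.41, namely Sqle, Msmo1, Sc5d, Nsdhl (-0.55 ± 0.09, adjusted p = 0.0016) and Cyp51 (-0.89 ± 0.19, adjusted p = 0.012), the last an enzyme that acts on lanosterol. Without the narrow arrays 1 was called lower, and 2 when the beta-actin ratio was added. For 15 of the 16 the effect at 120 h was lower than that at 24 h by a call of the difference itself, while the 2 effects on Abcg5 did not differ by a call.

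Bile acid synthesis, the other route that consumes hepatic cholesterol, was looked at as well. Of 12 genes 7 fell and 0 rose, with a median of -0.48. Cyp7a1, the rate-limiting enzyme, fell by 1.78 ± 0.44 (limma adjusted p = 0.0057), and Cyp8b1, which makes the precursor of cholic acid, fell by 2.45 ± 0.23 (adjusted p = 2.1e-08). With the beta-actin ratio as a covariate 4 were called lower. At 120 h limma called 0, with 4 at an unadjusted p under 0.05 (Akr1d1, Amacr, Cyp8b1 and Hsd17b4), and Cyp7a1 had -0.82 ± 0.44 (adjusted p = 0.42). Its effect did not differ between times by a call (0.96, adjusted p = 0.31).

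Of 21 genes of cholesterol uptake, trafficking and esterification 14 were measured. At 24 h 2 rose and 2 fell, with a median of 0.06, and 1 was called higher without the narrow arrays or with the beta-actin ratio as a covariate. The rises were Osbp, an oxysterol-binding lipid transfer protein (0.60 ± 0.09, limma adjusted p = 1.3e-05), and Lrp1, a remnant receptor (0.38 ± 0.09, adjusted p = 0.0050). The falls were Lipa, the lysosomal acid lipase (-0.59 ± 0.11, adjusted p = 0.00021), and Lipc, hepatic lipase (-0.45 ± 0.09, adjusted p = 0.00081). At 120 h limma called 0, with 4 at an unadjusted p under 0.05 (Apoa1, Lipc, Scarb1 and Stard3) and 3 calls, all lower, with the control level as a covariate, and Scarb1, the HDL receptor, had -0.53 ± 0.16 (adjusted p = 0.089).

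The lectin chaperones and other folding genes of the endoplasmic reticulum, where the 2 proteins pair, rose at 24 h. All 7 were called higher, with a median of 0.69. They included Canx, calnexin (0.30 ± 0.07, limma adjusted p = 0.0026), Calr, calreticulin (0.39 ± 0.07, adjusted p = 0.00040), and Hspa5, the chaperone BiP (0.82 ± 0.10, adjusted p = 1.6e-06). At 120 h limma called 0 of the 7, with 0 at an unadjusted p under 0.05 and a median of 0.01. ABCG5 and ABCG8 protein was not analysed here.

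The tissue label was checked with markers of liver cells. All 12 hepatocyte markers were measured. The log2 of their summed level was 15.98 to 16.03 in vehicle and 15.85 to 15.97 in ANIT rats at 24 h, and 15.95 to 15.99 and 15.90 to 15.95 at 120 h. The part of these markers in the fall of Abcg5 was not tested. At 24 h 2 hepatocyte markers rose (Hnf4a and Tat) and 2 fell (Ahsg and Fah). At an unadjusted p under 0.05 the same 2 were higher and 5 lower, namely Ahsg, Alb, Cps1, Fah and Ttr. At 120 h limma called 0, with 3 lower at an unadjusted p under 0.05 (Ahsg, Apoa1 and Asgr1).

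Markers of other cells moved in the same comparisons as Abcg5. Of 4 neutrophil markers measured, S100a8 and S100a9 rose at 24 h by 1.82 and 0.87, and the summed level was 6.88 to 8.24 in vehicle and 8.24 to 9.15 in ANIT rats. At 120 h limma called 0 of the 4, with 1, S100a9, at an unadjusted p under 0.05, and the sums were 6.77 to 7.68 and 7.04 to 8.74. Of 9 cholangiocyte markers, 4 rose at 120 h (Tspan8, Krt19, Prom1 and Cftr), with summed levels of 8.70 to 9.07 in vehicle and 9.32 to 9.90 in ANIT rats. Epcam and Muc1 were also higher then at an unadjusted p under 0.05. At 24 h Prom1 fell, Muc1 and Tspan8 were lower at an unadjusted p under 0.05, and the sums were 8.74 to 9.06 and 8.61 to 8.93. Of 8 macrophage markers only Cd163 was called, higher by 0.38 at 24 h and 0.43 at 120 h. At an unadjusted p under 0.05 Adgre1 was lower at 24 h, and Adgre1 and Csf1r were higher at 120 h. The macrophage sums were 11.74 to 12.06 in vehicle and 11.75 to 12.02 in ANIT rats at 24 h. At 120 h they were 11.66 to 12.04 and 11.87 to 12.28. Of 10 stellate cell and fibroblast markers Lrat and Reln fell at 24 h, by 1.25 and 0.52. At an unadjusted p under 0.05 Col3a1 was also lower and Dcn higher. The sums were 11.06 to 11.40 in vehicle and 10.56 to 11.32 in ANIT rats. At 120 h limma called 0 of the 10, and the sums were 11.02 to 11.50 and 11.37 to 11.80. Col1a1, Col1a2, Col3a1 and Dcn were then higher and Lrat lower at an unadjusted p under 0.05. The part of all these markers in the fall of Abcg5 was not tested.

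Over all 24 arrays the 5 genes whose values were most like those of Abcg5 by Pearson's r, among 13437 others, were Hadhb (0.88), Aldh3a2 (0.87), Cxcl12 (0.87), Bdh1 (0.87) and Ech1 (0.86). Their changes at 24 h were -0.42, -0.60, -1.02, -1.21 and -0.94, and at 120 h -0.38, -0.47, -0.51, -0.71 and -0.43. Because r over all arrays includes the group differences, genes with lower values in both ANIT groups were favoured by the choice, and these changes are a description only. Hadhb and Ech1 encode enzymes of fatty acid oxidation, Bdh1 one of ketone body metabolism, Aldh3a2 a fatty aldehyde dehydrogenase and Cxcl12 a chemokine. Abcg8 was 925th in this order.

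For Abcg8 the most alike were Cntnap2 (0.72), Satb1 (0.71), Dclk3 (0.70), Ankle2 (0.69) and Acox3 (0.67), with Abcg5 97th. On values minus group means, which leave out the group differences, Abcg5 was most like Ephx2 (0.78), Decr1 (0.69), Ptgr1 (0.69), Zdhhc4 (0.69) and C8h11orf65 (0.67), and Abcg8 most like Col10a1 (0.73), Cntnap2 (0.71), Satb1 (0.69), Dclk3 (0.69) and Shkbp1 (0.69). Each partner then ranked 193rd for Abcg5 and 139th for Abcg8. The arrays share their normalization and their SD, and r of Abcg5 minus group means with array SD was 0.25, with the spiked control level -0.34 and with the beta-actin ratio 0.34. For Abcg8 these were 0.09, -0.02 and 0.29.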

How the data were processed

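RNA from liver was amplified to cDNA, labelled with biotin and hybridised to 1-colour arrays, per the labels' protocols. The deposited table holds log2 values per probe set. RMA and Partek are named in the submitters' processing notes, with no versions or settings given in the sources used here. Values were used as deposited. Groups came from the sample descriptions, and replicate numbers follow accession order and pair no rats.

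Of 31139 probe sets, 19068 named 1 gene, 573 several and 11498 none. For each of 13438 genes the probe set brightest on average was used. limma 3.58.1 (R 4.3.3) fitted a cell-means model with eBayes, tested on simulated data, and p-values were adjusted by Benjamini-Hochberg over all genes. Exact permutation tests used Python 3.11.15 and scipy 1.17.1, and figures matplotlib 3.10.9. Promoter windows and gene starts came from RefSeq (GRCr8), in which both genes were found by symbol.

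The members and lists were chosen with earlier results of these data known. Named genes were the pair, up to 5 members of each list with the smallest p at each time, 10 genes of sterol and bile acid handling set by name, and the 5 genes most alike by r. Alternatives were other probe set rules, normalizations, covariates, filters and left-out arrays.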

Additional observations from a re-analysis of the deposited data

Results flagged for a closer look

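Among the 12 sets of 6 values of Abcg5, Abcg8 and their difference, 1 value stood apart from its group. Abcg8 in ANIT 120 h replicate 6 read 4.75, and its gap to the next rat, 4.16, was 0.68 of the range of the group, above Dixon's critical value of 0.625. Chance sets off this test in about 1 in 20 groups. The array was one of the narrow ones. Without that rat the Abcg8 change at 120 h was -0.14, and it was not called (limma adjusted p = 0.76). Abcg5 on the same array, 6.15, was also the highest of its group, with a gap of 0.054 of that group's range to the next rat.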

How the results depend on the processing

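The fall of Abcg5 at 24 h was called in 13 of 13 other settings, with changes from -1.30 to -0.90 and limma or exact permutation adjusted p from 7.5e-05 to 0.0094. The setting with the beta-actin ratio is among them, although that ratio cannot be separated from treatment at 24 h. At 120 h the fall of Abcg5 was called in 12 of 13, and without the narrow arrays it was -0.82 (adjusted p = 0.11). Leaving out 1 rat in turn gave Abcg5 changes of -1.12 to -0.91 at 24 h and -1.02 to -0.78 at 120 h, all called, a difference of effects of -0.039 to 0.20, a vehicle difference of 0.21 to 0.46 and an ANIT difference of 0.34 to 0.56. The difference of effects was -0.058 after a shift to a common median and 0.45 with the beta-actin ratio, the ends of its range over 11 settings, and was called in none of them. The ANIT difference of Abcg5 was 0.48 with the control level (adjusted p = 0.038) or array SD (adjusted p = 0.047) in the model, and called in both, and 0.84 with the beta-actin ratio (adjusted p = 0.11), the largest of 13 settings.

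Abcg8 was -0.23 with an exact permutation adjusted p of 0.043 at 24 h, 0.025 at 120 h with the beta-actin ratio, and 0.039, 0.018 and 0.015 between vehicle groups with another quantile normalization, the median shift and the band as a block. Over all settings Abcg8 ran from -0.44 (beta-actin ratio) to -0.15 (quantile normalization) at 24 h, and from 0.43 to 0.074 between ANIT groups and 0.46 to 0.061 for the difference of effects, with the beta-actin ratio the highest in both. Leaving out 1 rat gave -0.28 to -0.18 at 24 h, -0.14 to 0.093 at 120 h, 0.09 to 0.33 for the difference of effects, -0.16 to 0.026 between vehicle and 0.05 to 0.22 between ANIT groups. The filter on dim genes left Abcg8 out, so it has no value there. For Abcg5 minus Abcg8 the ranges were -0.87 to -0.66 at 24 h, -0.97 to -0.82 at 120 h, 0.35 to 0.48 between vehicle and 0.16 to 0.38 between ANIT groups, and 0.24 between vehicle groups after quantile normalization. The r ranges were -0.71 to 0.13 and 0.58 to 0.96 in vehicle rats of 24 h and 120 h, and -0.22 to 0.40 and -0.10 to 0.58 in ANIT rats. In vehicle rats of 120 h the unadjusted p passed 0.05 without replicate 4, 5 or 6 but not without 1, 2 or 3. Groups left with 3 rats without the narrow arrays were given no r.

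Counts of called genes moved more. At 24 h 2451 became 3687 with all probe sets, 907 with the beta-actin ratio and 1554 without narrow arrays, and at 120 h 272 became 460 with quantile normalization, 143 with the median shift, 674 and 652 with the control level and array SD, and 176 from the compared groups alone. The difference of effects, 1924, became 438 with the beta-actin ratio and 852 without narrow arrays, and the ANIT comparison, 2832, became 4321 with all probe sets and 880 with the beta-actin ratio. Between vehicle groups the 1 call became 0 to 17: 6 with all probe sets, 3 with mean probe sets, control level or array SD, 17 with quantile normalization, 2 with the beta-actin ratio or band, 12 without dim genes, 13 with an intensity trend, and 0 without narrow arrays or from those groups alone. Leaving out 1 rat gave 1829 to 3534 at 24 h, 152 to 343 at 120 h (152 without vehicle replicate 5, 165 without vehicle replicate 3, and 167, 165 and 153 without ANIT replicates 4, 5 and 6), 1430 to 3148 for the difference of effects, 1 to 175 between vehicle groups, the highest of both without vehicle 24 h replicate 1, and 2237 to 3078 between ANIT groups. The cause of these moves was not tested.

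No paired analysis was possible because the labels give no replicate numbers that groups share. Limits are the dim Abcg8 probe set, 1 probe set per gene, unlabelled array bands that overlap with 2 groups, an RNA quality ratio that differed between the groups of 24 h, and whole tissue without protein or bile measurements.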
